A study of Rattus norvegicus with 6 samples.

Results

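NMO-IgG was compared with control IgG in rats that had received MBP-specific T cells and in rats that had not, by taking 4 of the 6 arrays of the series as 2 matched pairs. In the first pair, ENMO (T cells and NMO-IgG) was set against EAEcoI (T cells and control IgG), and in the second, NMO-IgG only against control IgG only. All animals were Lewis rats, T cells were given on day 0 and antibody on day 4, and the spinal cords were taken 24 hours after the antibody. Each array carried RNA pooled from 5 rats and amplified from fixed, paraffin-embedded sections, so that there was 1 array per condition and no measure of the spread between animals. NMO-IgG had been purified from the plasma of a person with neuromyelitis optica, and control IgG was a commercial preparation of pooled normal human IgG (subcuvia). The other arrays of the series, EAEcoP (T cells and PBS, 5 rats) and healthy control (untreated, 3 rats), had no antibody. They were used only as a second view of the targets found.

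Neuromyelitis optica is an autoimmune disease of the spinal cord and optic nerve, in which most patients have IgG antibodies against aquaporin-4, the water channel of astrocytes. When such antibodies reach astrocytes through an opened blood-brain barrier, they can bind complement and engage Fc receptors of granulocytes and macrophages, and the astrocytes are lost. In the rat model the T cells open the barrier, while antibody given alone reaches little of the cord.

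On the array, 36410 targets (transcripts or expressed sequences with a probe of their own) were represented, and 11582 of them were well above background on all 4 arrays with antibody and could be compared. The share of spots well above background ran from 35.4% on control IgG only to 54.1% on EAEcoI. Defining astrocyte markers were dim in this RNA. The normalized signal intensity (NSI, the background-corrected intensity after quantile normalization, on a linear scale) of Aqp4 lay between 3.53 and 12.3 on the 6 arrays, and it was well above background on 1 of them. Gfap was above background on 4 arrays and Slc1a3 and S100b on none, whereas the myelin gene Mbp was above background on all 6. Of the 26 astrocyte markers listed, 12 were measured on all 4 arrays, so that loss of astrocytes could be followed only in part, and fewer cells of a type cannot be told apart from less RNA per cell.

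The arrays lay on 2 slides. ENMO and control IgG only were on slide 1, EAEcoI and NMO-IgG only on slide 2. A difference between slides therefore pushed the 2 pairs in opposite directions and dropped out of their mean. Any difference in the antibody response between rats with and without T cells cannot be told apart from the slide. EAEcoP was on slide 1 and healthy control on slide 2, each with the NMO-IgG array of its own background. Nearness of these arrays to an antibody array therefore cannot be told apart from the slide either.

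With T cells, 1934 targets (16.7%) were at least 2-fold higher with NMO-IgG and 1193 (10.3%) at least 2-fold lower. Without T cells, 875 (7.55%) were higher and 1273 (11.0%) lower. The same direction in both pairs was found for 311 targets: 111 (0.958%) were at least 2-fold higher and 200 (1.73%) at least 2-fold lower with NMO-IgG in both. The opposite direction was found for 602 targets (5.2%), of which 487 were higher with T cells and lower without, and 115 the reverse. This imbalance depended on the background correction: with normexp the counts were 227 and 264, and without background correction 356 and 414. At the edge of the 2-fold rule, the last target inside the higher set had log2 ratios of 1.26 and 1.0, and the first outside, Ppp3cb, 1.0 (just under the limit) and 1.23. For the lower set these values were -4.61 and -1.0 inside and -2.01 and -0.99 outside.

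Across all measured targets the 2 pairs did not go together. Pearson's r between the log2 ratios of the pairs was -0.092 and Spearman's rho -0.114 (n = 11582 targets on the same 4 arrays, a description and not a test). The sign was shared by 47.5% of the targets. The median log2 ratio was 0.15 with T cells and -0.03 without, and the SD across targets 1.1 and 0.807. Expressed as contrasts of the 4 arrays, the mean of the pairs (antibody) had an SD of 0.653 across targets, the difference of slides or of responses 0.713, and T cells over no T cells 0.749. The antibody contrast was therefore the narrowest of these contrasts. With the targets divided into 4 equal bins by brightness, r was 0 in the brightest (median NSI 456), and in the others it lay between -0.161 and -0.118.

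**Figure D1:**
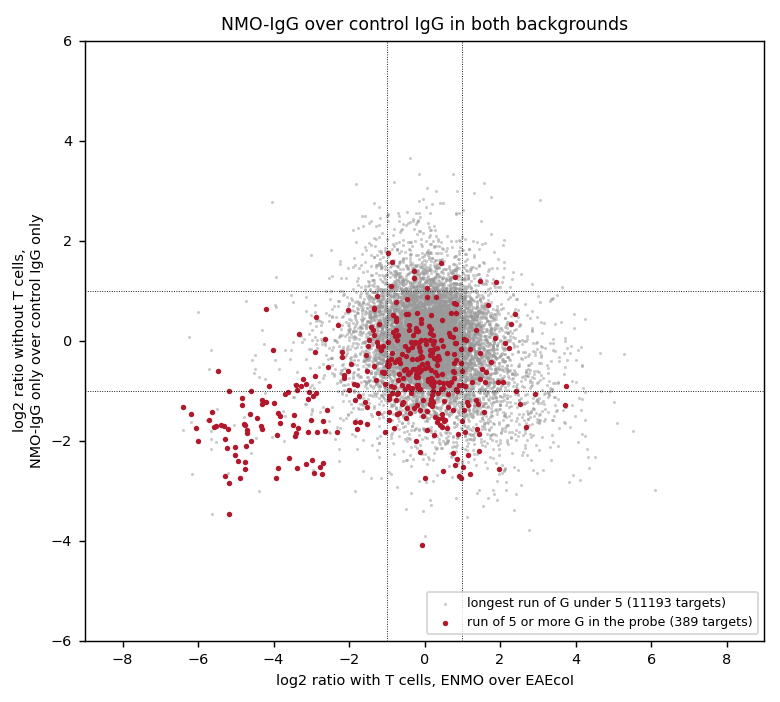
Each point is 1 of the 11582 measured targets, with the log2 ratio of ENMO over EAEcoI on the x axis and that of NMO-IgG only over control IgG only on the y axis; dotted lines mark 2-fold. The cloud has no slope (r = -0.092), and the corner of targets lower in both pairs holds 82 red points, the probes with a run of 5 or more G, among its 200 targets.

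A fit over all 6 arrays with terms for T cells and antibody (limma) called 0 of 11582 targets (0%) for NMO-IgG over control IgG at an adjusted p of 0.05. At an unadjusted p under 0.05 there were 153 (1.32%), of which 54 were higher and 99 lower with NMO-IgG. For a single target, the exact permutation test of 2 arrays against 2 cannot give a two-sided p under 0.33, so none was run. No target was therefore called changed, and the ratios describe these 4 arrays.

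Targets lower in both pairs had a feature of their probes in common. Of the 15 named targets with the lowest ratios in both pairs, 13 were measured by a probe with 5 or more G in a row, and 8 of these had 6 or more. Stretches of 30 bases from these 60-base probes are shown as deposited, 5′ to 3′, with each run of at least 4 G in capitals. They were chosen to show the runs next to Sema6a, the one probe of the 15 without such a run, and next to 3 probes of the higher set.

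FAM187A: gaacaagatGGGGGagggtatactggcaat
Dclk1: ccaaGGGGGGaccttcggaggttcgggaga
Samd11: gatgatgtctgcaacttcgtGGGGGGcctt
Hnrnpa3: taattatggacccatgaaGGGGGGcagttt
Tgfbr1: tgatcatattcttGGGGGGaaatgttgtca
Nf2: tttttgtttGGGGttGGGGGtgattataat
Lsamp: tacaagatGGGGGGagactattgtttcaca
Sema6a: gtgtgtgtgatcaccggcgcaaagacgtgg
S100a10: agaggagctttcgagttttatattgtttgc
Gabrr1: cgatctcctccaatttggaattcttcatct
Asns: tcccttcaatactccccaaactaaagaagg

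Among all measured targets, the motif GGGG (read on the probe strand only; a longer run counts for the shorter motifs too) was in 12.6% of the probes, GGGGG in 3.36% and GGGGGG in 0.829%. Among the 200 targets lower in both pairs it was in 111 probes (55.5%), with GGGGG in 82 (41.0%) and GGGGGG in 50 (25.0%). Among the 111 targets higher in both, GGGG was in 9 probes (8.11%) and GGGGGG in none. Runs of 4 or more C went the other way, with 20.7% of all probes, 29.7% of the higher set and 8.0% of the lower set.

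Probes with long runs of G were bright as a class on some arrays and not on others. The 96 targets with 6 or more G had a median NSI of 1050 on EAEcoI and 3060 on healthy control, against 157 on ENMO, 202 on EAEcoP, 128 on NMO-IgG only and 293 on control IgG only. Their median log2 ratio was -2.78 with T cells and -1.19 without, and 50 of the 96 (52.1%) were in the lower set. For the 10118 targets without a run of 4 G the medians were 0.17 and 0.00, and 89 of them (0.880%) were in the lower set. The brightness of the class on healthy control, an array without T cells or antibody, stood above that on every array with antibody. Of the 111 targets of the lower set whose probe had GGGG, 80 had their highest level on healthy control, and of the other 89 targets of that set 1 had. What made these probes bright was not tested.

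**Figure D2:**
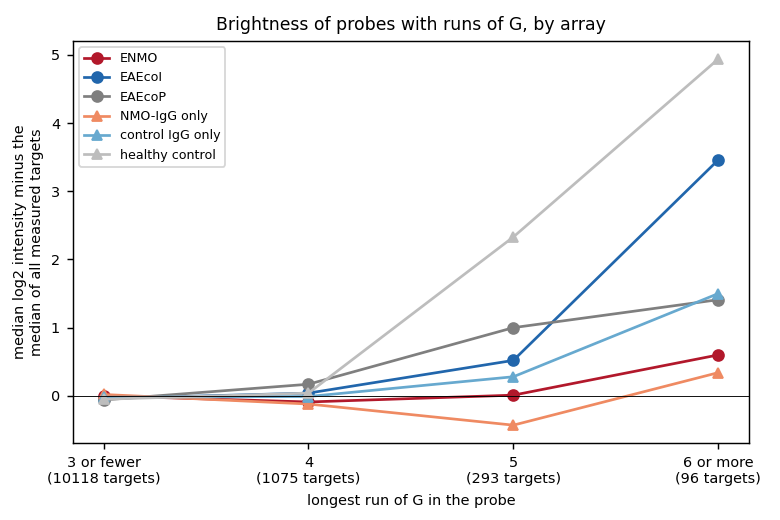
The median log2 intensity of targets grouped by the longest run of G in their probe, minus the median of all measured targets on the same array, for each of the 6 arrays (1 line each). With 6 or more G, healthy control (4.94) and EAEcoI (3.46) stand far above ENMO (0.60) and NMO-IgG only (0.34).

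Targets higher with NMO-IgG in both pairs were led by S100a10, the partner of annexin A2 at the cell membrane. Its NSI was 1120 on ENMO and 135 on EAEcoI, and 453 on NMO-IgG only and 63.9 on control IgG only, which is 8.31-fold and 7.08-fold. Both NMO-IgG arrays were above both control IgG arrays. EAEcoP (481) and healthy control (327) lay between the arrays of their own background. The mean of the pairs was 2.94 on the log2 scale (SE 0.607, unadjusted p = 0.00105 and adjusted p = 1 in limma), and it stayed between 2.43 and 3.22 under the alternatives tried.

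Gabrr1, a rho subunit of GABA receptors, had an NSI of 2500 on ENMO and 583 on EAEcoI, and of 2830 and 696 without T cells. Cib1, a calcium- and integrin-binding protein, had 3970 and 943 with T cells and 8190 and 2180 without, and its probe was the only one of the 15 with a run of 4 G. For both genes the NMO-IgG arrays did not overlap with the control IgG arrays, which the choice of targets on these arrays favours. Mboat4, the acyltransferase that activates ghrelin, was 3.41-fold higher with T cells and 7.3-fold higher without. Asns, the asparagine synthetase that responds to amino acid shortage, had an NSI of 128 on ENMO, 29.8 on EAEcoI, 187 on NMO-IgG only and 62.6 on control IgG only. Its levels on EAEcoP (30.7) and EAEcoI were alike.

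The rest of the 15 named targets were between 2.62-fold and 5.08-fold higher in the T cell pair and between 2.58-fold and 3.95-fold in the other. Enzymes among them were Cyp4a1, which hydroxylates fatty acids (3.01-fold and 3.9-fold), the aldo-keto reductase Akr1c15 (2.95-fold and 2.92-fold) and the ubiquitin ligase Trim32 (2.92-fold and 2.98-fold). Rcan2, an inhibitor of calcineurin, was 2.62-fold and 3.95-fold higher, Cmtm3 5.08-fold and 2.58-fold, Ocel1 3.59-fold and 3.43-fold, and Ubap2 2.86-fold and 3.81-fold. Or6c214b, Or9r3b and Or6c202e are olfactory receptors, a family whose members are seldom expressed outside the nose. Olfactory receptors made up 6 of the 60 targets with a gene symbol in the higher set (10%) and 6.17% of all measured targets with a symbol, and 4 were in the lower set. Under the alternatives tried, the mean of the pairs (log2) fell to 0.54 for Rcan2, 0.59 for Or9r3b and 0.68 for Trim32. It fell to 0.85 for Ubap2 and 0.86 for Cmtm3. For Ocel1, Or6c214b, Cyp4a1, Akr1c15 and Or6c202e it stayed at 1.37 or above.

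Targets lower in both pairs were led by Sema6a, a semaphorin of axon guidance, with an NSI of 186 on ENMO and 9260 on EAEcoI, and of 15 on NMO-IgG only and 165 on control IgG only. Thus the level on ENMO was above that on control IgG only, and the groups overlapped across the backgrounds. EAEcoP (62.2) and healthy control (58.9) were far below EAEcoI, so the T cell ratio of 49.8-fold rested on the high EAEcoI array. With the mean over its probes in place of the brightest probe, the mean of the pairs was -2.17 instead of -4.55 (log2).

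Of the 15 named targets lower in both pairs, 12 had their highest level on healthy control. Dclk1, a microtubule-associated kinase, had 41.9 on ENMO and 1640 on EAEcoI, 32.6 on NMO-IgG only and 213 on control IgG only, 23.3 on EAEcoP and 3170 on healthy control. Lsamp, a neuronal adhesion molecule, had 93.5, 2840, 74.3 and 395 in the same order of the 4 antibody arrays, and 3800 on healthy control. Healthy control, EAEcoI and control IgG only were likewise the 3 highest arrays for FAM187A, Tuba8 (a tubulin), Ly6i, Or2h1 and Ccn1 (a matrix protein), which were 26.9-fold to 50.4-fold lower with T cells and 4.51-fold to 7.19-fold lower without.

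Samd11, Hnrnpa3 (an RNA-binding protein), Ubald2, the TGF-β receptor Tgfbr1, the tumour suppressor Nf2, Ppp1r3g and Kazald1 were 6.42-fold to 14.7-fold lower with T cells and 5.47-fold to 6.33-fold lower without. A second probe existed for some of them. For Hnrnpa3 it gave log2 ratios of 3.1 and -0.98, against -2.94 and -2.64 for the probe with GGGGGG. For Tgfbr1 it gave -0.26 and 1.53 against -3.88 and -2.54, and for Ubald2 3.01 and -1.0 against -3.37 and -2.55.

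**Figure D3:**
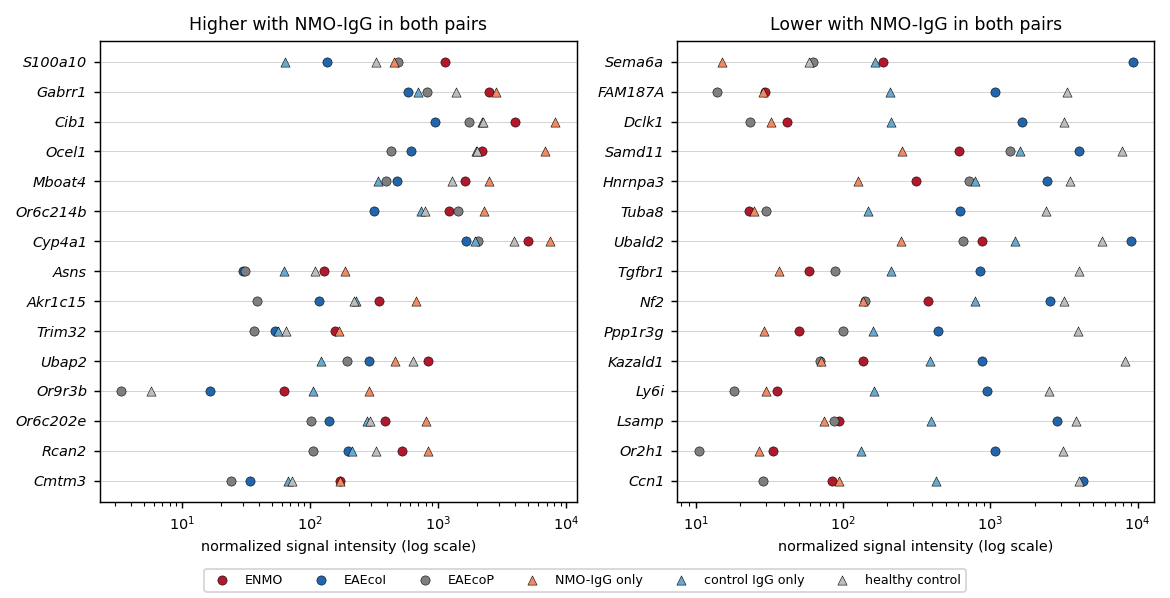
Normalized signal intensity (log axis) on each of the 6 arrays for the 15 named targets higher (left) and the 15 lower (right) with NMO-IgG in both pairs; circles are arrays with T cells and triangles those without. On the left the NMO-IgG arrays (red, orange) lie to the right of the control IgG array of the same shape, as the choice of targets requires. On the right healthy control lies farthest to the right for 12 targets.

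Other probes for the same gene allowed a check that the choice of targets did not use. In the higher set, 4 genes had a further measured probe, 6 probes in all, of which 1 was higher with NMO-IgG in both pairs and 0 by 2-fold. That probe belonged to Col1a2, a chain of type I collagen, with log2 ratios of 0.86 and 0.22 against 1.65 and 1.19. In the lower set, 16 genes had 16 further probes, of which 2 were lower in both pairs and 0 by 2-fold. These were for Zfp664 (-1.07 and -0.46) and Ubn1 (-0.03 and -0.57), which like Col1a2 are named here because they were the only ones. Over all measured targets, 26.6% were higher and 21.0% lower in both pairs by any size. The 1 of 6 and the 2 of 16 further probes were no larger shares than these.

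The same held for the array at large. For 544 genes with at least 2 measured probes, the log2 ratios of the 2 brightest probes had r = 0.056 in the T cell pair and 0.034 in the pair without T cells, and shared their sign in 52.2% and 50.7%. For T cells over no T cells r was 0.074. The log2 levels of the same 2 probes had r = 0.582. Repeated spots of 1 probe, by contrast, went together. For 91 measured probes with 10 spots, the ratio from 5 of the spots and that from the other 5 had r = 0.940 with T cells and 0.862 without, and the SD of a difference between single spots on 2 arrays was 0.655 (log2), or 1.57-fold. These correlations are across genes and probes on the same arrays and are descriptions.

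The ratios varied with the position on the array. When the array was divided into 40 tiles (8 by 5), the median log2 ratio of a tile ran from -0.61 to 1.28 with T cells and from -0.88 to 0.74 without. The higher set was not spread evenly. The 4 tiles with its largest shares, picked for that, held 38 of the 111 higher targets but 873 (7.54%) of all measured targets. In 9 tiles there was no higher target. After removal of the local trend of each array, 51 of the 111 higher and 147 of the 200 lower targets were still past 2-fold in both pairs. S100a10, Gabrr1, Asns, Mboat4, Cyp4a1 and Akr1c15 were among the 27 named genes of the higher set that held without a run of 4 G and with the local trend removed. In the lower set 23 named genes held, with Sema6a, the histone deacetylase Hdac4 and the kinase Mark2 among them. A second probe of Hdac4 gave log2 ratios of 0.11 and -0.27, against -3.69 and -1.51 for the probe used. The NSI of Hdac4 on EAEcoP (1690) was also near that on EAEcoI (2030).

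The arrays without antibody had no part in the choice, but the antibody arrays they were set against did. Their levels gave different pictures in the 2 backgrounds. In the higher set EAEcoP was nearer to EAEcoI than to ENMO for 92 of 111 targets. ENMO was above EAEcoP by a median of 1.82 (log2) and EAEcoI by 0.34. EAEcoP lay below both of these arrays for 69 of the 111 and between them for 30. Targets did not have to be bright on EAEcoP, and its median NSI over all measured targets was 76.2, against 104 on ENMO and 95.8 on EAEcoI. For the counts of nearness here and below, the share over all measured targets was not counted, so they cannot be read as a trait of either set. Healthy control was nearer to control IgG only for 63 of 111 and lay between the antibody arrays for 64. The median of NMO-IgG only minus healthy control was 0.94 and that of control IgG only minus healthy control -0.59. For 54 targets the array without antibody was nearer to control IgG in both backgrounds and for 10 nearer to NMO-IgG in both.

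In the lower set EAEcoP was nearer to ENMO for 126 of 200 targets, and EAEcoI stood 2.08 above EAEcoP in the median. Without T cells, healthy control was nearer to control IgG only for 131 of the 196 targets with a value there. In both backgrounds the array without antibody was nearer to control IgG for 34 targets and nearer to NMO-IgG for 27.

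Among 26 gene lists, 10 list members passed 2-fold in the same direction in both pairs. Higher were Il6, the cytokine of the acute phase response, Lgals3, a galectin of phagocytes, Ptgds, the prostaglandin D synthase of meninges and glia, Col1a2, and the ribosomal gene Rps2. Further probes of Rps2 gave log2 ratios of 2.73 and -0.09, 2.14 and -0.04, and -0.47 and -1.58, none of them higher in both pairs. Lower were C3ar1, the receptor for complement fragment C3a, Cd8b of cytotoxic T cells, Acsbg1, an acyl-CoA synthetase of astrocytes, the peptide transporter Tap2 and the kinase Pim1. No list had more than 2 members in the same direction, but the lists did not hold every gene of their kind. Outside them, the ribosomal genes Rpl39 (log2 ratios 1.87 and 1.07) and Rps29 (3.64 and 1.07) were also in the higher set. So was Atp5pf, a subunit of ATP synthase (2.85 and 1.13). On EAEcoP, Rps29 had an NSI of 4090, above ENMO (1720). The background was 0.958% of targets higher and 1.73% lower, and the list members are too few to set any list apart from it.

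Il6 was dim, with an NSI of 39.4 on ENMO, 19.5 on EAEcoI, 74.7 on NMO-IgG only and 26.5 on control IgG only. Both NMO-IgG arrays were above both control IgG arrays, which the choice on these arrays favours, but healthy control (47.0) was above ENMO. The mean of the pairs for Il6 ran from 0.47 to 1.38 (log2) under the alternatives tried. Lgals3 had 270 and 70.2 with T cells and 133 and 63.2 without, with 691 on EAEcoP, the highest of all. Ptgds had 833 and 397 with T cells and 1690 and 560 without. Here NMO-IgG arrays were above control IgG arrays and above those without antibody, 328 on EAEcoP and 617 on healthy control. Col1a2 had 499 and 159, and 482 and 211, and was lowest on healthy control (55.6).

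C3ar1 had an NSI of 138 on ENMO, 781 on EAEcoI, 55.7 on NMO-IgG only and 200 on control IgG only, and was highest on healthy control (2210). Its probe held a run of 4 G, as did that of Tap2, and the probe of Pim1 held 6. Acsbg1 had 92.1 and 205 with T cells and 78.4 and 181 without, and its levels were highest on EAEcoP (648). Cd8b had 133 and 279, and 74.2 and 198, with 68.2 on EAEcoP and 235 on healthy control. Neither of these probes had a run of 4 G.

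Genes of the effector mechanisms of the antibody were looked at as groups. Of 31 complement genes 16 were measured, with median log2 ratios of 0.19 with T cells and 0.20 without. A run of 4 G or more was in the probes of 6 of the 16, against 12.6% of all measured targets. Higher in both pairs by any size were 5 of the 16 and lower 2, where of all measured targets 26.6% were higher and 21.0% lower, so that these counts lay near the background. Clu, a complement inhibitor also made by astrocytes, had 47.0 on ENMO, 9.21 on EAEcoI, 73.0 on NMO-IgG only and 38.5 on control IgG only. C9, the last component of the membrane attack complex, had 64.5 and 21.4, and 76.2 and 50.8. Both genes were higher in both pairs, but less than 2-fold without T cells.

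Among Fc receptors and their signalling adaptors, 6 of 18 genes were measured and the medians were 1.24 and 0.12. The IgG receptor gene Fcgr1a had an NSI of 2320 on ENMO and 140 on EAEcoI (log2 ratio 4.05), but 73.6 on NMO-IgG only and 84.1 on control IgG only (-0.19). Fcgr2a had 3080 and 233 (3.72), and 174 and 167 (0.05). On EAEcoP, without any human IgG, Fcgr1a was at 575 and Fcgr2a at 798, between EAEcoI and ENMO. Tyrobp, the adaptor of several myeloid receptors, was higher in both pairs with log2 ratios of 1.60 and 0.97, the second just short of 2-fold.

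Microglia and macrophage genes had medians of 1.08 and -0.09 (11 of 24 measured). With T cells 6 of the 11 were at least 2-fold higher with NMO-IgG and 0 lower, and without T cells 1 was higher and 1 lower. Over all targets the shares were 16.7% and 10.3% with T cells and 7.55% and 11.0% without, so that the counts without T cells lay near the background. The cathepsin Ctsb had 2510 on ENMO and 283 on EAEcoI, against 850 and 662 without T cells. Cd68, a lysosomal protein of phagocytes, had log2 ratios of 1.24 and 0.33, and Tmem119, a marker of resident microglia, 3.30 and -0.81. Neutrophil genes (6 of 24 measured) had medians of -0.18 and -0.13, and 0 of them passed 2-fold in either pair.

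Interferon-stimulated genes (16 of 47 measured) had medians of 0.73 and -0.25. With T cells 6 were higher and 1 lower, without T cells 0 higher and 4 lower, beside shares over all targets of 16.7% and 10.3%, and of 7.55% and 11.0%. The immunoproteasome genes Psmb9 and Psmb10 had log2 ratios of 1.44 and 5.02 with T cells, and -0.06 and -1.23 without. Psmb10 was at 1040 on ENMO and 32.3 on EAEcoI, but at 2070 on EAEcoP. B2m, the light chain of MHC class I, had 3820 and 476 with T cells (3.0) and 518 and 280 without (0.89). In the T cell pair the other MHC genes had ratios of smaller size, and the medians of the 9 measured were -0.07 and 0.02.

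The genes that the study had checked by qPCR were chosen by it on these same samples, so their direction in the T cell pair is no independent evidence. Of 6 genes 4 were measured on all arrays compared, with medians of 2.17 and -0.44. Myo1f, an unconventional myosin of myeloid cells, had log2 ratios of 4.00 and -0.82, and the transcription factor Irf5 2.74 and -1.56. Gbp2, a guanylate-binding protein induced by interferon, was not above background on control IgG only (NSI 19.7), and had 4470 on ENMO, 963 on EAEcoI and 40.6 on NMO-IgG only. The paper's qPCR used fresh tissue of other rats. There Irf5 was significantly higher in ENMO than in EAEcoI, and Gbp2 than in EAEcoI and EAEcoP. Myo1f was not significantly higher than in either, for which the paper gave non-linear amplification of the fixed material as the most likely reason. Cotl1, Psmb9 and Tyrobp showed a trend. The table of 8 astrocyte-related genes, also chosen on these samples, had 7 measured, with medians of 0.38 and 0.08. Cfd, complement factor D, had 3.17 and -1.61, and Igfbp1, a binding protein for insulin-like growth factors, -1.68 and 1.51. Both passed 2-fold in opposite directions, while Slc8a3, a sodium-calcium exchanger, was higher in both pairs with 0.38 and 0.99. Of the genes of these 2 lists measured on all 4 arrays, none was past 2-fold in the same direction in both pairs.

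**Figure D4:**
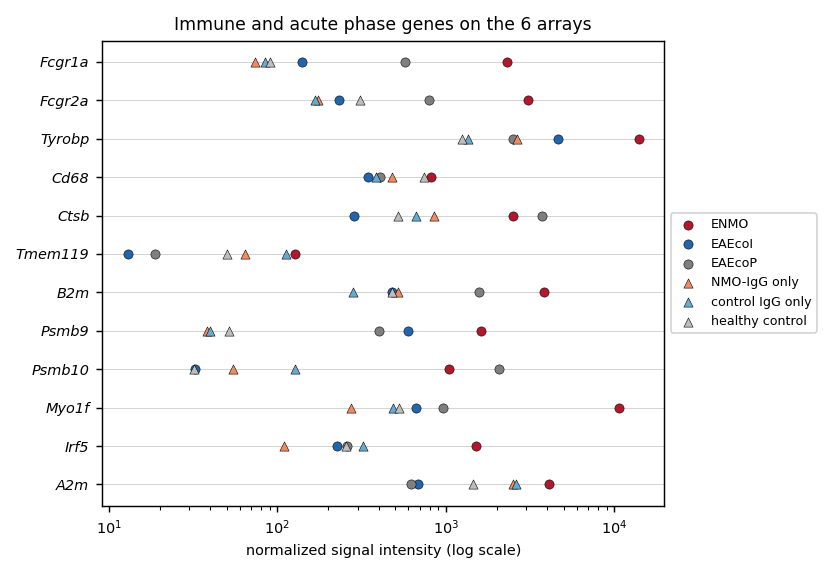
Normalized signal intensity (log axis) on each of the 6 arrays for 12 immune and acute phase genes taken from the lists as examples; circles are arrays with T cells and triangles those without. Among these picked genes ENMO (red) is the highest array except for Ctsb and Psmb10, for which EAEcoP is. Fcgr1a, for example, is at 2320 on ENMO and at 73.6 on NMO-IgG only (orange). The examples do not stand for their lists. In the T cell pair 1 of the 9 measured MHC genes was at least 2-fold higher. Of the 14 measured acute phase genes 1 was at least 2-fold higher there and 3 lower.

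Astrocyte genes had medians of 0.48 and 0.00 (12 of 26 measured). Gjb6, a connexin of astrocyte gap junctions, had 129 on ENMO and 60.0 on EAEcoI, and 1870 and 1410 without T cells. Serpina3n, a protease inhibitor of reactive astrocytes, had log2 ratios of 0.52 and 0.28. Apoe, a lipid carrier made by astrocytes, had 1.74 and -1.52. Myelin and oligodendrocyte genes had medians of -0.29 and -0.27 (13 of 22 measured), with 6 lower and 2 higher in both pairs by any size (21.0% and 26.6% of all measured targets). The probes of 4 of the 13 held a run of 4 G or more, against 12.6% of all measured targets. Under the alternatives tried, the list median for the mean of the pairs ran from -0.46 to 0.17. Mbp had -0.35 and -1.78. Cspg4, of oligodendrocyte precursors and pericytes, had -3.27 and -0.91, but its probe held 6 G.

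T cell genes had medians of -0.12 and 0.23 (10 of 22 measured). By any size, 2 of the 10 were higher in both pairs, 2 lower and 6 opposite. Over all measured targets these shares were 26.6%, 21.0% and 52.5%. Tbx21 (log2 ratios 1.99 and 1.07) and Cxcr6 (1.05 and 1.26), not on the list, were in the higher set, and Cd8b of the list in the lower. The genes named next are single examples. Gzmb, the granzyme of cytotoxic cells, had log2 ratios of -0.96 and 2.52, and the chemokine Ccl5 -0.24 and 1.38. The chemokine receptor Cxcr4 had -1.18 and 2.46. Neuronal genes had 0.27 and 0.03 (9 of 24), and endothelial genes 0.04 and -0.22 (11 of 20). Genes of meninges, Schwann cells and connective tissue had 0.30 and 0.38 (7 of 21), with Ptgds and Col1a2 the 2 members past 2-fold in both pairs.

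Among lists with at least 5 measured members, the widest gap between the pairs was that of genes every cell uses. Ribosomal protein genes (28 of 40 measured) had a median log2 ratio of 1.53 with T cells and -0.21 without, and oxidative phosphorylation genes (19 of 40) 1.24 and -0.44. Rps6 had 4960 on ENMO and 362 on EAEcoI, against 1830 and 2030 without T cells. Rpl10 had 6860 and 464, against 3080 and 3300. Cox5b, a subunit of cytochrome c oxidase, had 300 and 17.0, against 173 and 190, and was at 812 on EAEcoP. Ndufa9, of complex I, had 1.24 and -2.66 on the log2 scale. The ratios of these genes stood in the T cell pair beside those of the immune genes above and were of like size. Whether the one bears on the other was not tested, and a difference between the pairs cannot be told apart from the slide.

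**Figure D5:**
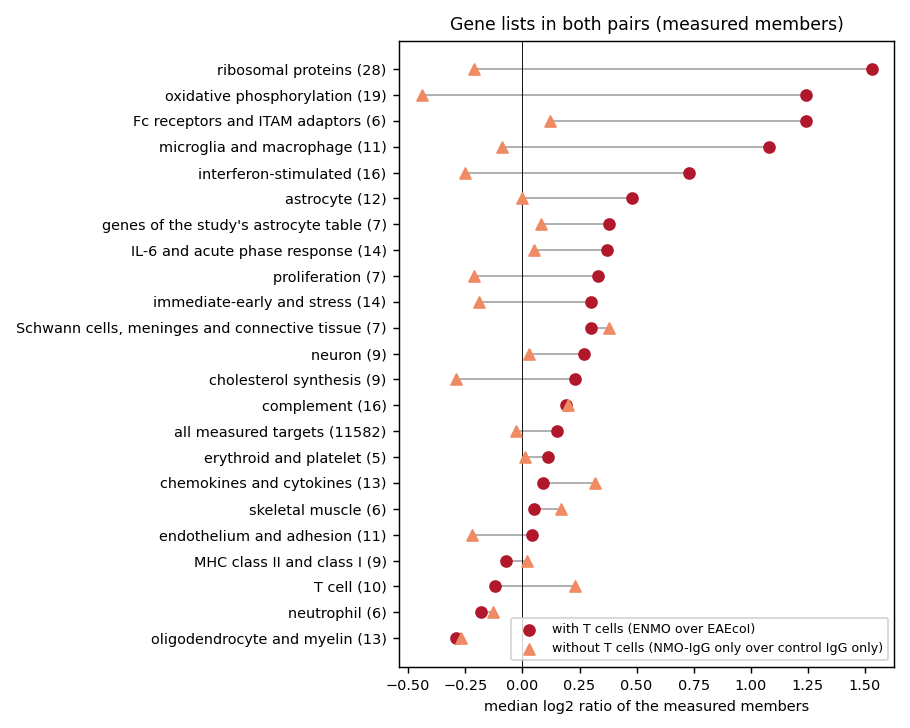
Median log2 ratio of the measured members of each gene list with at least 5 of them, in the pair with T cells (circles) and in the pair without (triangles), sorted by the former; numbers of measured members stand in brackets. Ribosomal (1.53 and -0.21) and oxidative phosphorylation genes (1.24 and -0.44) have the widest gaps, and for complement (0.19 and 0.20) and myelin genes (-0.29 and -0.27) the medians lie close together. Single members did not: 9 of the 16 complement and 5 of the 13 myelin members went in opposite directions by any size.

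Targets well above background on both arrays of one antibody and on neither of the other have only a bound. This choice fixes their direction, so the counts and bounds below are no evidence of a change. The detection floor also differed between arrays, from 6.23 on EAEcoI to 11.6 on control IgG only, and the 2 shares cannot be compared. Of 88 targets bright only with NMO-IgG, 28 (31.8%) were at least 2-fold above the detection floor or the dim level in both pairs. The 5 with a gene symbol and the largest bounds were Elp4 (at least 4.0-fold higher over the groups), Slc39a8, a zinc and manganese transporter (at least 3.96-fold), the RNA-binding protein gene Fmr1 (at least 3.18-fold), the scavenger receptor Colec12 (at least 3.0-fold) and Snx22 (at least 2.87-fold). Healthy control was brighter than both NMO-IgG arrays for Slc39a8 (197) and Fmr1 (112). Of 190 targets bright with control IgG, 16 (8.42%) passed in both pairs. The 5 with a symbol and the largest bounds were Irgm, an interferon-inducible GTPase (at least 8.47-fold lower with NMO-IgG), Spock1 (4.04-fold), Myo9b (3.96-fold), Marchf7 (3.5-fold) and Birc5, an inhibitor of apoptosis in dividing cells (3.25-fold), each as a lower bound. The probes of Irgm and Spock1 held 5 and 4 G in a row, and Irgm was at 1780 on healthy control.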

How the data were processed

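Spinal cord RNA was measured on one-colour 4x44K whole rat genome arrays. For every array the authors deposited a spot table from Feature Extraction 10.1.1.1 (45018 spots, version per the file headers), which holds the processed intensity, corrected for background and spatial trend and not normalized between arrays, and a table of 1 intensity per target. Flags in the spot tables, deposited as other values of 0 or 1, mark outliers and spots well above background. Here processed intensities of noncontrol spots were taken as log2 values, outlier spots left out, spots of a probe averaged, arrays quantile-normalized together, and each target read from its brightest probe. Symbols came from transcript accessions in RefSeq of GRCr8, then from deposited gene names, and 6464 of the 11582 measured targets had one. Coordinates were not used here, since the files' build is not given in the sources used here.

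Antibody was tested with limma 3.58.1 (trend, terms for T cells and antibody, Benjamini-Hochberg) and the fit was tested on simulated data. Each condition had 1 array, so limma took the spread from the additive fit (2 residual degrees of freedom), and the number of arrays limits the precision. Named targets were the 15 higher and 15 lower in both pairs, 5 in each opposite direction and 5 bounds in each direction, with a symbol, ranked by the smaller ratio of the pairs, and members of the gene lists where a list is described. A bound set the bright arrays against the higher of the dim target's level and the lowest NSI well above background on that array (6.23 to 11.6). The members and lists were chosen with earlier results of these data known. Alternatives were other scalings, background corrections, probe summaries, filters, fold thresholds, terms and arrays left out; leaving out probes with runs of G was chosen after seeing the data. Feature sequences are those in the deposited spot tables. Some items are not reported here.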

Additional observations from a re-analysis of the deposited data

Results flagged for a closer look

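In 10 named targets the 2 pairs went in opposite directions past 2-fold. The difference of the log2 ratios (with T cells minus without) was not tested, and it cannot be told apart from the slide. Higher with T cells and lower without were Dusp6, a phosphatase of the ERK pathway (difference 9.10), the transcription factor Tcf4 (6.61), Ntrk2, the receptor of BDNF (5.61), the adenylyl cyclase Adcy5 (5.71) and the phospholipase Gpld1 (5.46). Dusp6 had an NSI of 1080 on ENMO and 15.6 on EAEcoI, but 25.2 on NMO-IgG only and 201 on control IgG only, with 98.4 on EAEcoP and 27.0 on healthy control. Lower with T cells and higher without were Bpifa5 (-6.82), Tmem252 (-4.15), Myadml2 (-4.11), the olfactory receptor Or8s8 (-3.54) and Paqr9 (-3.39). Bpifa5 had 657 and 10900 with T cells and 1060 and 155 without.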

How the results depend on the processing

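Main counts were 111 targets higher, 200 lower and 602 opposite, with r = -0.092. Normexp gave 59 higher, 84 lower and r = -0.218, and no background correction 75 higher, 125 lower and r = -0.246. Most of the main higher set was replaced by other targets there. Of the main 111 higher and 200 lower targets, 24 and 63 still passed with normexp. Without background correction 32 and 87 did. With targets above background on at least 1 array there were 353 higher, 662 lower, 2312 opposite and r = -0.168, and without a filter 437, 703, 3202 and -0.211. At 1.5-fold the counts were 528, 486 and 1628, and at 3-fold 8, 82 and 149. Without probes holding 4 G or more (chosen after seeing the data) 89 were lower and r = -0.190, and with the local trend removed too, 95 and -0.148. The opposite direction outnumbered the same direction in every setting named, and r was below 0. limma called 0 targets in the main fit, 6 without background correction, 69 with the slide as a term, and 0 to 194 when 1 array was left out, the 194 without control IgG only, 2 without NMO-IgG only and 1 without EAEcoI. Unadjusted p under 0.05 ran from 141 to 694 targets. Among named targets, Tgfbr1 turned to 0.36 in the deposited values per target (mean of the pairs, log2). The cause was not tested. Of 648 values of named targets 90 moved by more than the spot error, and of 260 list medians 3.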
